A study of Drosophila melanogaster with 999 samples.

Results

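The pb-positive motoneurons (MNs) are the cells of this series that carried at least 10 raw reads of proboscipedia (pb), the Hox gene of the mouthpart segments, and under 10 reads each of twit and Vmat. Of 999 sequenced cells, 733 stayed below 10 reads for both twit and Vmat (low-twit cells), and 51 of these 733 were pb-positive (6.96%, 95% exact interval 5.22 to 9.05%). The other 682 low-twit cells are the cells they are set against here. All cells were RFP-positive, DAPI-negative and DRAQ5-positive cells of untreated embryos, aged 19 to 20 h and pooled (1 pool), that carried the OK371-GAL4 driver and the UAS-RFP transgene, and they were sequenced 1 cell per well on 16 plates by SMART-Seq2. OK371-GAL4 follows the gene VGlut, which glutamatergic cells use to load their synaptic vesicles, so that some brain neurons are labelled beside the MNs. Primers for 7 Hox genes (Abd-B, abd-A, Ubx, Antp, Scr, Dfd and lab) were added at reverse transcription and preamplification, whereas pb received none. No label names an embryo, so the cells form 1 sample, cells are not replicates, and no test between groups of cells was possible. Each difference is therefore a description, and its interval covers counting error only.

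Hox genes encode homeodomain transcription factors (TFs) that give cells along the anterior-posterior axis their segmental identity, and they act with the homeodomain cofactors encoded by hth and exd. In flies, pb is needed in the maxillary and labial appendages. Dfd is also expressed in the maxillary segment and acts in the MNs that move the mouth hooks. Antp, Ubx, abd-A and Abd-B act in successive parts of the thorax and abdomen (trunk Hox genes below). Other homeodomain TFs mark smaller sets of MNs, among them exex, Lim3, tup and HGTX in ventrally projecting MNs and eve in dorsally projecting ones. Surface molecules with immunoglobulin or leucine-rich repeat domains take part in axon guidance and partner choice.

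Since pb chose the cells, its level is a description. The 51 cells held between 23 and 7482 pb reads with a median of 357, and 41 of them held at least 100. The cells just inside the limit had 23, 33, 33 and 36 reads, and those just outside had 7, 2, 2 and 1. Of the 682 other cells, 7 held 1 to 7 pb reads and 675 held 0, so that few cells lay near the limit of 10. The pb-positive cells held 39343 of all 39732 pb reads (99.02%). The gene pb (FBgn0051481) lies on chromosome 3R at 6707800 to 6742063 on the minus strand in BDGP6.54. Its transcript pb-RA took 59.4% of the estimated reads in these cells, pb-RB 21.8%, pb-RD 17.4% and pb-RC 1.31%, and as these transcripts differ little in length and sequence, the division among them is uncertain.

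The pb-positive cells came from 14 of the 16 plates and made up 0 to 14.3% of the low-twit cells of a plate, with the highest share on plate 8. Total counts ranged from 102994 to 1787581 with a median of 292408 in pb-positive cells, and from 100027 to 5834773 with a median of 345168 in other low-twit cells. A median of 1184 genes per pb-positive cell and 1131 genes per other cell had at least 10 reads. No columns were identical, and 8 pairs of pb-positive cells lay in adjacent wells. The median overlap of their homeodomain genes (Jaccard index) was 0.25, against 0.188 over 1174 pairs on different plates. Whether reads passed between wells was not tested further.

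Neuronal markers were seen in most cells of both groups. The cells were sorted by a driver that follows VGlut, and Syt1 and elav mark neurons in general. These markers therefore cannot separate MNs from the labelled brain neurons. VGlut was seen in 49 of 51 pb-positive cells (96.1%) and in 94.4% of other cells, the synaptotagmin gene Syt1 in 51 of 51 and in 99.3%, and the pan-neuronal gene elav in 90.2% and 79.6%. The glial master gene repo had no pb-positive cell with 10 reads. Of 12 glial markers, 2 (moody and nrv2) reached 10 reads in a pb-positive cell and 6 stayed at 0, and their sum ranged from 0 to 2468 CPM in pb-positive cells and from 0 to 25074 CPM in others (reads scaled to the total of the cell). Muscle markers (3 of 12 seen, Mef2, Mlc1 and sls) summed to at most 463.8 CPM in pb-positive cells and 3739 CPM in others. Markers of hemocytes (1 of 11 seen, crq) summed to at most 387.1 and 49835 CPM, and those of epidermis (2 of 11 seen, serp and vvl) to at most 1668 and 3991 CPM. Genes of other transmitters were also seen, with VGAT in 13 of 51 pb-positive cells and 130 of 682 others, and ChAT, whose exons overlap VAChT, in 10 and 96. Gad1, the GABA synthesis gene, was seen in 3 pb-positive cells and 6 others. The part of these markers in the results that follow was not tested.

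**Figure D1:**
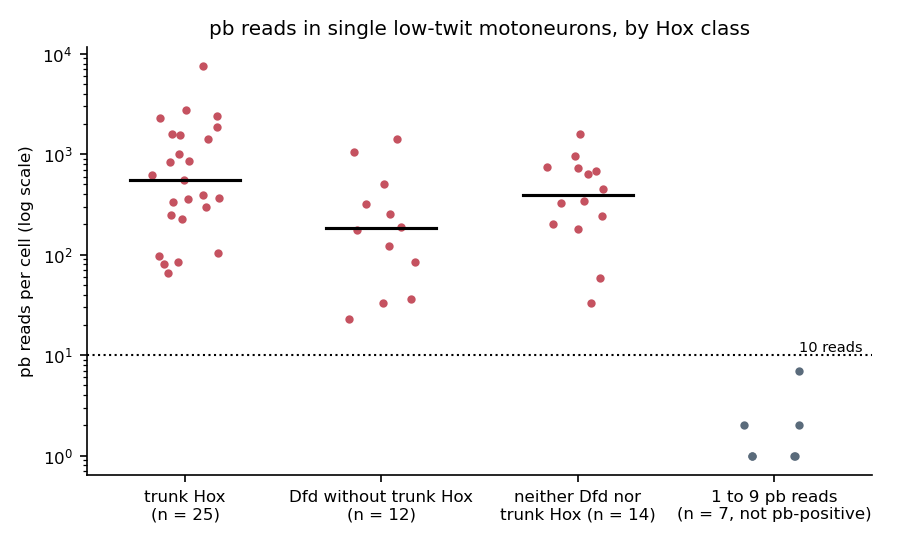
Reads of pb in each low-twit cell with at least 1 pb read (vertical axis, log scale), by the other Hox genes of the cell, where each point is a cell, the bars are medians and the dotted line marks 10 reads. The 51 pb-positive cells sit between 23 and 7482 reads, and the 7 cells below the line hold at most 7.

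Most pb-positive cells carried another Hox gene, and the identity of that gene divided them. At 10 reads, 39 of 51 pb-positive cells (76.5%, 62.5 to 87.2%) had at least 1 of the 7 primed Hox genes, against 386 of 682 other cells (56.6%, 52.8 to 60.4%). Trunk Hox genes were present in 25 pb-positive cells (49.0%) and 315 other cells (46.2%). At 1 read, 43 pb-positive cells (84.3%) and 481 other cells (70.5%) had a primed Hox gene, which left 8 and 201 cells without any. Whether some of these lie in the brain was not tested.

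Dfd, the head Hox gene, was the primed Hox gene with the largest difference. It was in 12 of 51 pb-positive cells (23.5%) and in 21 of 682 other cells (3.1%), a difference of 20.5 percentage points with an interval of 9.58 to 34.5. Its reads in the cells that carried it ranged from 19 to 689 with a median of 173.5 in pb-positive cells, and had a median of 110 and a maximum of 412 in other cells. The mean normalized count was 11.9-fold higher in pb-positive cells (log2 ratio 3.58). In each of these 12 pb-positive cells, Dfd was the only primed Hox gene with 10 reads. Over 9 alternative settings the Dfd difference lay between 17.6 and 23.5 points, and without each plate in turn between 16.6 and 24.3.

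For the other primed Hox genes, the difference of the shares was under 10 points in either direction, and each interval included 0. Ubx was in 20 pb-positive cells (39.2%) and 30.9% of others, abd-A in 17 (33.3%) and 27.0%, Antp in 13 (25.5%) and 31.1%, and Abd-B in 8 (15.7%) and 16.6%. Only 3 pb-positive cells had lab and 1 had Scr, the gene of the labial and prothoracic segments, against 52 and 38 other cells. Of the Hox complex genes without added primers, bcd was in 0 pb-positive cells and 4 others, and ftz reached 10 reads in 0 pb-positive cells and 1 other cell.

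Of the Hox partners, hth, the cofactor that carries Exd into the nucleus, was in 39 pb-positive cells (76.5%) and 412 others (60.4%), 16.1 points higher with an interval of 1.57 to 27.4. Its detecting cells had a median of 440 reads in pb-positive cells and 179 in others. However, hth was in 42 of the 45 low-twit cells with Dfd or Scr and without pb and trunk Hox (93.3%), a higher share than in the pb-positive cells, and among cells with a primed Hox read the difference was 8.89 points. An antisense gene overlaps hth, and the counting is not stated to use strand. The cofactor exd was in 19 pb-positive cells and 240 others, 2.09 points higher with an interval from -11.6 to 17.2. The zinc-finger gene tsh, which marks trunk identity, was in 22 pb-positive cells and 244 others, and all 22 of these pb-positive cells had a trunk Hox gene.

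The 51 cells were then divided by their other Hox genes, which was decided with their values in view. It gave 25 cells with a trunk Hox gene, 12 with Dfd and 14 with neither. They made up 7.35% of the low-twit cells with a trunk Hox gene, 36.4% of those with Dfd (20.4 to 54.9%) and 3.89% of those with neither. The reads of pb had a median of 560 in the trunk Hox cells (65 to 7482), 183.5 in the Dfd cells (23 to 1432) and 394.5 in the cells with neither (33 to 1602). The ranges of the 3 sets overlapped. Divided by depth, the medians of normalized pb counts were 550.6, 164 and 539.4.

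**Figure D2:**
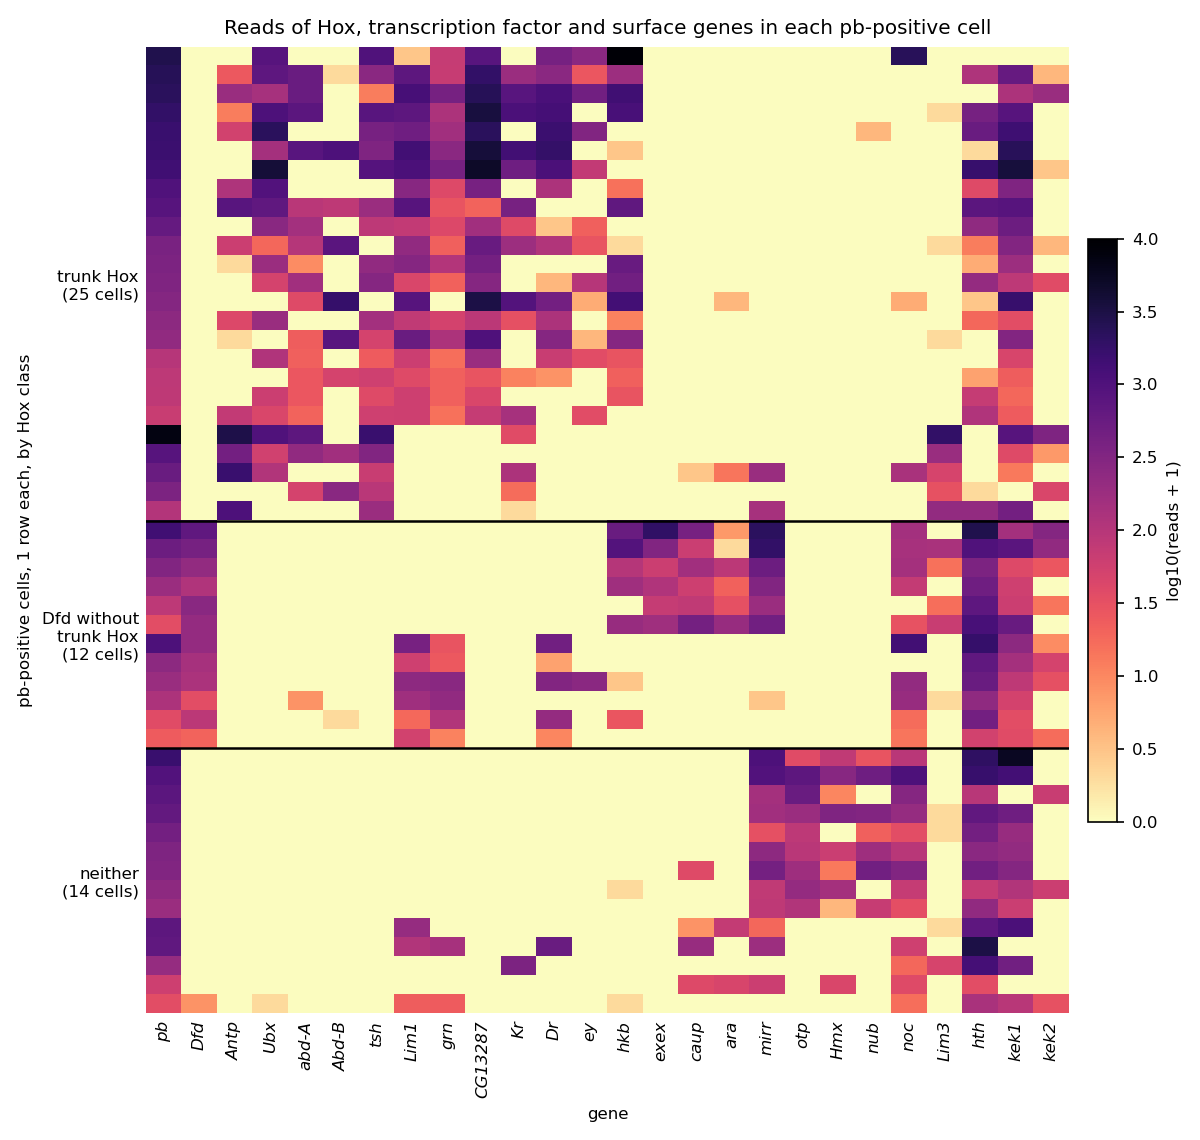
Reads of 26 genes (columns) in each of the 51 pb-positive cells (rows), on a log10(reads + 1) color scale, with the cells grouped by their other Hox genes. CG13287 and Ubx are each dark in 20 of the 25 trunk Hox rows, exex and caup in the same 6 of the 12 Dfd rows, and otp in 9 of the 14 rows with neither.

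Most pb-positive cells with a trunk Hox gene shared a set of TFs. CG13287 (FBgn0035643, chromosome 3L at 5882304 to 5884090), a gene with an annotation symbol alone, was in 20 of the 25 (80%, 59.3 to 93.2%), against 56 of 315 other trunk Hox cells (17.8%, 13.7 to 22.5%). It was in no pb-positive cell outside this set. Over all low-twit cells it was in 20 of 51 pb-positive cells and 63 of 682 others, with 19 to 4899 reads and a median of 495 in the pb-positive cells that had it and a median of 221 in the others that had it. The GATA factor gene grn, known from dorsally projecting MNs, was in 19 of the 25 cells and 158 of 315, and the LIM homeodomain gene Lim1 was in 19 and 224. Kr and hkb, zinc-finger genes known as gap genes of the early embryo, were in 15 and 14 of the 25 pb-positive cells, against 55 and 44 of the 315. Conversely, the Iroquois gene mirr was in only 2 of the 25 pb-positive cells and 142 of the 315 (45.1%).

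The muscle segment homeobox gene Dr and CG13287 met in 17 low-twit cells, and 13 of these were pb-positive (76.5%, 50.1 to 93.2%). Of all cells with either gene, 17 of 131 with Dr and 20 of 83 with CG13287 were pb-positive. The 13 cells came from 5 plates and held 97 to 2779 pb reads with a median of 1424, 66 to 1779 reads of Dr and 88 to 4899 of CG13287. Of the 13, 12 had Lim1, 12 had grn, 11 had Ubx and 9 had hkb. The 4 cells with both genes and without pb came from 3 plates and each held 0 pb reads. They also had Lim1, grn, hkb and the Pax6 gene ey. Of these 4, 0 had Antp or Ubx, but 2 had abd-A and 2 had Abd-B. In the 13 pb-positive cells, Antp was in 7, abd-A in 8 and Abd-B in 4.

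A different trunk set was made of 2 cells on plates 2 and 11, the only low-twit cells with both unpg and HGTX. They held 7482 and 839 reads of pb, 9270 and 661 of the homeodomain gene unpg, and 849 and 12 of HGTX, the fly Nkx6 gene. Both also had Vsx1 with 70 and 17 reads, Lim3 with 1872 and 187, ct with 290 and 167 and zfh1 with 201 and 268. Antp, Ubx and abd-A were present in both, and Lim1, grn and CG13287 in neither. Among other low-twit cells, 16 had unpg and 4 had HGTX, but never together.

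The 12 Dfd cells fell into 6 with exex and 6 with Lim1. All 6 low-twit cells that had both Dfd and exex were pb-positive (54.1 to 100%), and they came from 5 plates. exex, the fly Hb9 gene, was in 0 of the 21 other Dfd cells, which allows a share of up to 14.3%. These 6 cells held 33, 1432, 323, 178, 84 and 505 reads of pb, and in the same order 211, 689, 217, 112, 268 and 418 of Dfd and 159, 1912, 61, 112, 70 and 318 of exex. All 6 also had the Iroquois genes mirr (180 to 2150 reads) and caup (59 to 422 reads), hth (354 to 2835 reads) and exd (16 to 389 reads). The Iroquois gene ara was in 4, hkb in 5, the POU gene vvl in 5, zfh1 in 5 and Lim3 in 4. By contrast, mirr was in 2 of the 25 pb-positive trunk Hox cells.

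Of the other 6 Dfd cells, all had Lim1 and grn. In low-twit cells as a whole, Dfd, Lim1 and grn met in 10 cells, of which 6 were pb-positive (60%, 26.2 to 87.8%). On plates 1 and 6, 2 of these cells also shared the Pax6 gene toy (46 and 603 reads), unc-4 (161 and 116), vvl (24 and 43) and ct (52 and 65). However, toy, unc-4 and Lim1 also met in 12 cells without pb, 5 of them with Dfd, and 3 of the 12 had vvl and 1 had ct.

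Set against the 21 Dfd cells without pb, the 12 with pb differed in some TF and surface genes. The genes named here were picked after their values were seen. Besides Eph and Ptp69D, given below, surface genes differed in both directions. The differences were 34.5 points for Sema1a, 30.95 for robo2, 26.2 for Drl-2 and 23.8 for beat-Ia. They were -27.4 points for kek2, -22.6 for Nlg4 and -20.2 for kirre. Dscam4, Con and DIP-beta differed by 3.57 points each and otk by -8.33. Slob, which encodes a binding partner of the Slowpoke potassium channel, was in 9 of 12 (75%, 42.8 to 94.5%) and 2 of 21 (9.52%, 1.17 to 30.4%). Eph, the ephrin receptor gene, was in 11 of 12 and 6 of 21, and the receptor tyrosine phosphatase gene Ptp69D in 7 of 12 and 1 of 21. hkb and caup were each in 6 of 12 and 1 of 21. Kr was in 0 of 12 and 9 of 21, and the homeodomain gene NK7.1 in 0 of 12 and 8 of 21. In the Dfd cells, mirr was thus in 6 of 12 pb-positive cells and 17 of 21 others.

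The 14 cells with neither Dfd nor a trunk Hox gene most often had hth, noc and mirr. mirr was in 12 of 14 (85.7%, 57.2 to 98.2%) and in 64 of 346 other such cells (18.5%, 14.5 to 23.0%). noc, a zinc-finger gene, was in 13 of 14 and 90 of 346, and hth in 14 of 14 and 204 of 346. The homeodomain gene otp (orthopedia) was in 9 of 14 and 27 of 346. An antisense gene overlaps otp.

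Together, mirr and otp marked 10 low-twit cells, of which 9 were pb-positive (90%, 55.5 to 99.7%), whereas 0 of 31 cells with otp and without mirr were, which allows a share of up to 9.68%. The 9 cells came from 6 plates and held 180 to 1602 reads of pb, 31 to 1072 of mirr and 36 to 748 of otp. Of the 9, 6 had Hmx, 7 had the POU gene nub and 3 had the islet gene tup. The 1 cell with mirr and otp and without pb, on plate 5, also had Hmx with 35 reads, nub with 66 and tup with 18, and 0 reads of pb. A primed Hox gene reached 10 reads in 1 of the 9, which had 32 reads of lab.

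Most of these combinations were found by counting all pairs of 25 TF genes, and those with unpg, HGTX, Vsx1, toy or unc-4 were picked from the gene lists of the cells, all after the values of single genes were seen. Of 300 pairs, 254 occurred in low-twit cells. The share of pb-positive cells among all low-twit cells was 6.96%, but it is no background for pairs picked by their values. Single genes of the 25 ranged widely, with 37.5% for exex, 36.4% for Dfd and 4.22% for vvl. How high the picked pairs would stand through the picking alone was not tested.

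**Figure D3:**
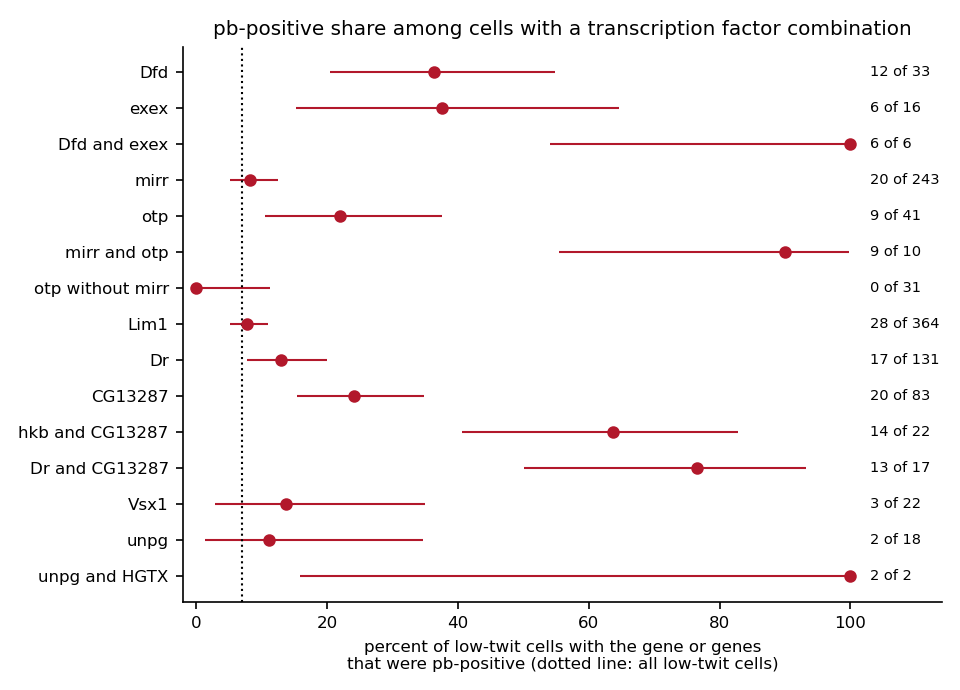
Share of low-twit cells with the named gene or genes that were pb-positive (horizontal axis, percent), where points are shares, bars are 95% exact intervals, the numbers at the right are cells and the dotted line is the 6.96% of all low-twit cells. The pairs Dfd and exex (6 of 6), mirr and otp (9 of 10) and Dr and CG13287 (13 of 17) lie far to the right of the same genes taken alone. These pairs were picked after the values were seen.

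Over all 7276 genes compared, 30 (0.412%) were seen in a share of pb-positive cells at least 20 points higher than in other low-twit cells, and 15 (0.206%) in a share at least 20 points lower. These 45 genes were 0.618% of those compared, and the median difference of all genes was 0.49 points. Of the 45 genes, 13 kept a difference of at least 20 points in all 9 alternative settings, and all 45 kept their sign. These settings reuse most of the cells that chose the 45 genes, so the kept signs are no separate support. The number past 20 points fell to 26 when a single pb read made a cell pb-positive, and was 76 without plate 8 and 83 among cells with a primed Hox read. The genes just inside 20 points were Pde11, Dfd and Tet with 20.1, 20.5 and 20.7, and those just outside were Syn2, SkpA and corto with 19.97, 19.84 and 19.81.

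The homeodomain genes as a list did not lean to either side. Of 61 homeodomain genes in the gene table other than pb, 1 was at least 20 points higher (Dfd) and 1 at least 20 points lower (oc), against 0.412% and 0.206% of all genes. The difference was above 0 for 30 of the 61 genes and below 0 for 31, with a median of -0.33 points. The count of 2 genes past 20 points was 1 without plate 1, 3, 5, 6 or 17 and when a single pb read made a cell pb-positive, and 0 without the limits on twit and Vmat. In pb-positive cells, 42 of the 61 were seen and 19 were not, and a cell held 3 to 12 of them with a median of 8, against a median of 7 in other cells. Another 39 listed homeodomain genes lie outside the gene table, and 3 of these reached 10 reads in a pb-positive cell.

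Under Dfd, most homeodomain genes with the largest positive differences were named in the sets above. Next to hth, Dr was 16.6 points higher (33.3 and 16.7% of cells), zfh2 14.7 (76.5 and 61.7%), caup 14.3 (17.6 and 3.37%) and otp 12.95 (17.6 and 4.69%). ey followed with 12.8 points, Lim3 and ara with 11.8 each, Hmx with 11.1, exex with 10.3 and Ubx with 8.28. Several of these values moved with 1 plate or with the cells compared. The difference was 10.81 points without plate 6 and 10.6 without plate 13 for Dr, 7.89 without plate 6 and 8.06 without plate 10 for ey, 7.03 without plate 8 for ara and 7.70 without plate 2 for Lim3. Among cells with a primed Hox read it was 4.48 points for otp, 5.11 for Hmx and 2.64 for Ubx. The mean normalized count was 7.50-fold higher in pb-positive cells for exex, 7.39-fold for Hmx, 5.58-fold for otp and 4.37-fold for caup. Lim1 was in 28 pb-positive cells and 336 others, and mirr in 20 and 223, with differences of 5.64 and 6.52 points whose intervals included 0, and only 2 pb-positive cells had both. unc-4 was in 2 and 23 cells.

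Several homeodomain genes that were seen in other low-twit cells did not reach 10 reads in any pb-positive cell. oc (orthodenticle, FBgn0004102), a head gap gene, was in 0 of 51 pb-positive cells, which allows a share of up to 5.88%, and in 159 of 682 others (23.3%). The difference of -23.3 points had an interval from -26.7 to -15.7. dve was in 0 pb-positive cells and 116 others (17.01%), and the LIM homeodomain gene Lmx1a in 0 and 60. The forkhead gene fkh, outside the homeodomain list, was in 0 and 92. toy was in 2 pb-positive cells and 112 others, ct in 5 and 144, and vvl in 10 and 227, with differences of -12.5, -11.3 and -13.7 points. The intervals of ct and vvl included 0. These absences were shared with the 45 low-twit cells that had Dfd or Scr and neither pb nor a trunk Hox gene, of which 1 had oc, 1 Lmx1a, 3 dve and 0 fkh. Of the 201 cells without pb and any primed Hox read, 43 had oc, 34 Lmx1a, 40 dve and 52 fkh.

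MN subtype markers were mixed. Of 4 dorsal markers, grn was higher by 22.9 points (27 of 51 and 205 of 682 cells), and Dr by 16.6. eve was in 1 pb-positive cell and 3 others, and the netrin receptor gene unc-5 in 9 and 140. Of 9 ventral markers, 0 passed 20 points. Lim3 (10 and 53 cells) and exex (6 and 10) lay above 0 beyond their intervals. The helix-loop-helix gene Oli was in 16 and 149 cells, tup in 5 and 39, HGTX in 2 and 4, zfh1 in 14 and 191, vnd in 2 and 30 and Fas3 in 5 and 133. Of 7 genes of the retrograde BMP signal in MNs that are in the gene table, 0 passed 20 points, with the receptor gene wit in 3 pb-positive cells and 57 others.

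**Figure D4:**
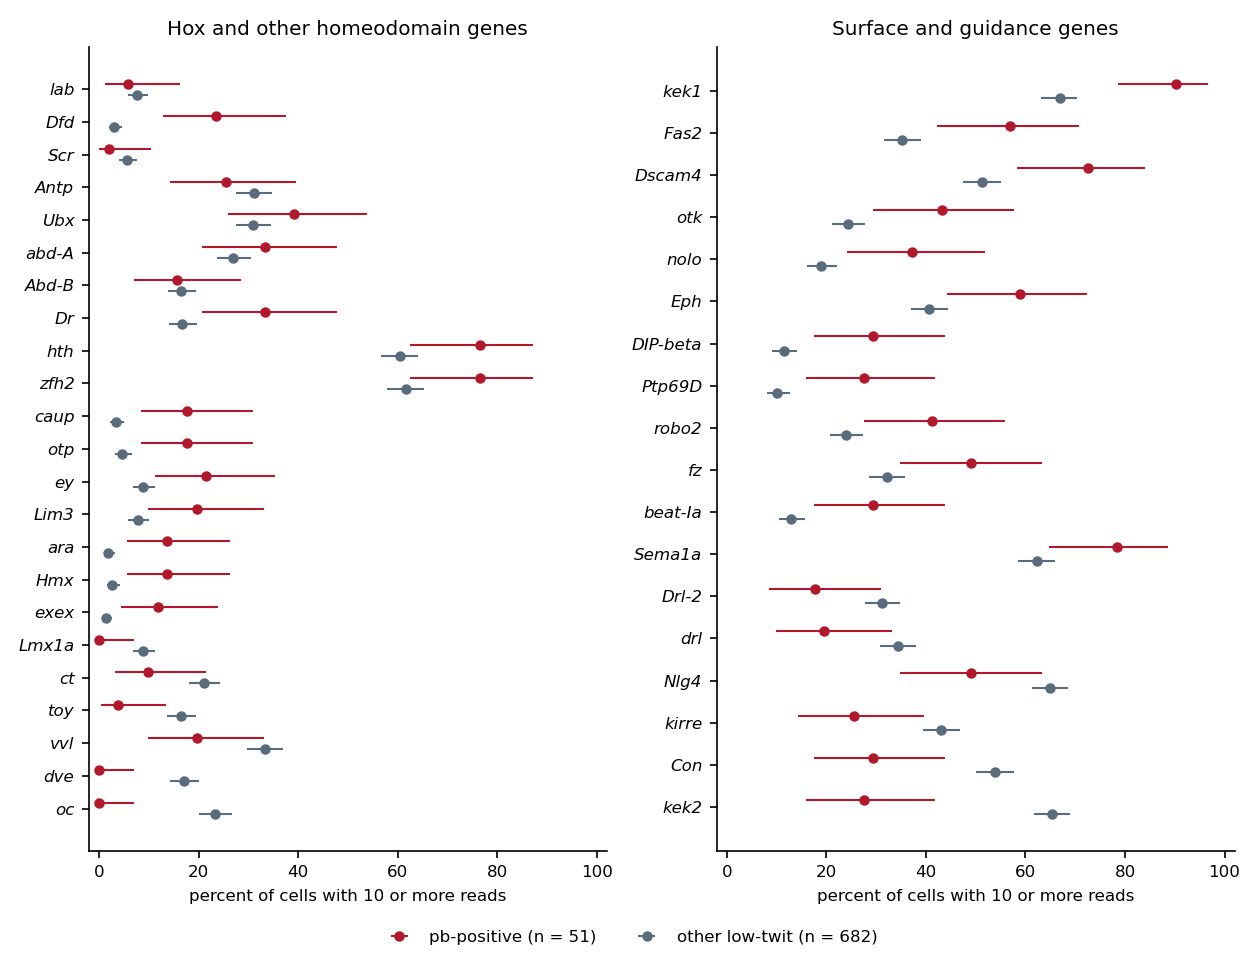
Share of cells with at least 10 reads (horizontal axes, percent) for Hox and other homeodomain genes on the left and surface genes on the right, with pb-positive cells (n = 51) above other low-twit cells (n = 682) for each gene and bars for 95% exact intervals. Dfd stands at 23.5 and 3.1%, oc at 0 and 23.3%, kek1 at 90.2 and 66.9% and kek2 at 27.5 and 65.4%.

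The surface genes held 3 genes past 20 points upward (kek1, Fas2 and Dscam4) and 2 downward (kek2 and Con) of 129 in the gene table, against 0.412% and 0.206% of all genes. Their median difference was 0.14 points, with 67 genes above 0 and 62 below. The count of 5 was 9 without plate 8 and among cells with a primed Hox read, and 2 when a single pb read made a cell pb-positive. None of the 21 dpr, 11 DIP, 14 beat or 8 side genes passed 20 points. In pb-positive cells 124 of the 129 were seen at 10 reads.

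The largest difference of any gene was that of kek2 (kekkon 2), a transmembrane gene with leucine-rich repeats and an immunoglobulin domain. It was in 14 of 51 pb-positive cells (27.5%, 15.9 to 41.7%) and in 446 of 682 others (65.4%, 61.7 to 69.0%), a difference of -37.9 points with an interval from -50.0 to -23.2. The cells that had it held 13 to 343 reads with a median of 46 in pb-positive cells, and a median of 119 with a maximum of 3401 in others. Its mean normalized count had a log2 ratio of -2.21. In all 9 alternative settings the kek2 difference stayed between -39.5 and -32.5 points, and without each plate in turn between -39.9 and -35.6.

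In each of the 3 Hox classes, kek2 was seen in a smaller share of pb-positive cells. It was in 4 of 25 and 197 of 315 trunk Hox cells, in 7 of 12 and 18 of 21 Dfd cells and in 3 of 14 and 231 of 346 cells with neither. The Dfd interval of 27.7 to 84.8% for pb-positive cells overlapped that of 63.7 to 97.0% for other cells. Also against the 45 Dfd or Scr cells without pb and trunk Hox and the 201 cells without pb and any primed Hox read, kek2 was lower, with 71.1 and 66.2% of those cells. Its relative kek1, whose product binds the EGF receptor, showed the reverse. It was in 46 of 51 pb-positive cells (90.2%) and 456 of 682 others (66.9%), 23.3 points higher with an interval of 11.2 to 30.8. Its reads had a median of 204 in the pb-positive cells and 161.5 in the others that had it. However, kek1 was also in 80% of the 45 Dfd or Scr cells, against 68.2% of the 201 cells. Among Dfd cells it was in 12 of 12 with pb and 19 of 21 without.

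Fas2, the neural cell adhesion gene found on MN axons, was in 29 pb-positive cells and 240 others, 21.7 points higher with an interval of 6.56 to 35.9. Its mean normalized count was not higher, with a log2 ratio of -0.22, and its reads had a median of 61 in pb-positive cells and 112 in other cells that had it. The Fas2 difference was 14.1 points among cells with a primed Hox read. Dscam4 was in 37 and 350 cells, 21.2 points higher with an interval of 6.38 to 33.4, and 10.1 points higher when 1 read counted as detection. Con (connectin), a leucine-rich repeat adhesion gene, was in 15 and 368 cells, with a difference of -24.5 points and an interval from -37.1 to -9.6.

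Below 20 points, guidance genes were among the surface genes with the largest differences. otk was 18.8 points higher, nolo 18.3, Eph 18.2, DIP-beta 17.97, Ptp69D and the Slit receptor gene robo2 17.3 each, the Wnt receptor gene fz 16.9, beat-Ia 16.5 and Sema1a 16.1. robo2 overlaps an antisense gene. Some of these values moved with the setting or with 1 plate. With detection at 1 read the difference was 6.03 points for Eph and 4.69 for Sema1a, and among cells with a primed Hox read it was 6.70 for nolo and 11.5 for robo2. It was 10.1 points for nolo and 11.1 for DIP-beta without plate 13, 12.4 for otk without plate 14 and 11.5 for robo2 without plate 2. robo2 was in 41.2% of pb-positive cells and 53.3% of the 45 Dfd or Scr cells without pb and trunk Hox. On the other side stood kirre with -17.6 points, the neuroligin gene Nlg4 with -15.9 and the Ryk receptor genes drl and Drl-2 with -14.7 and -13.6, the last with an interval that included 0.

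The surface genes differed between the Hox classes. Among trunk Hox cells, DIP-beta was in 13 of 25 pb-positive cells (52%, 31.3 to 72.2%) and 48 of 315 others (15.2%, 11.5 to 19.7%), and in 1 of 12 and 1 of 21 Dfd cells. Eph and Ptp69D stood out in the Dfd cells, as given above. Among cells with neither, nolo, an ADAMTS-like gene, was in 10 of 14 and 63 of 346 and Fas2 in 10 of 14 and 128 of 346. How these differences compare between the classes was not tested.

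**Figure D5:**
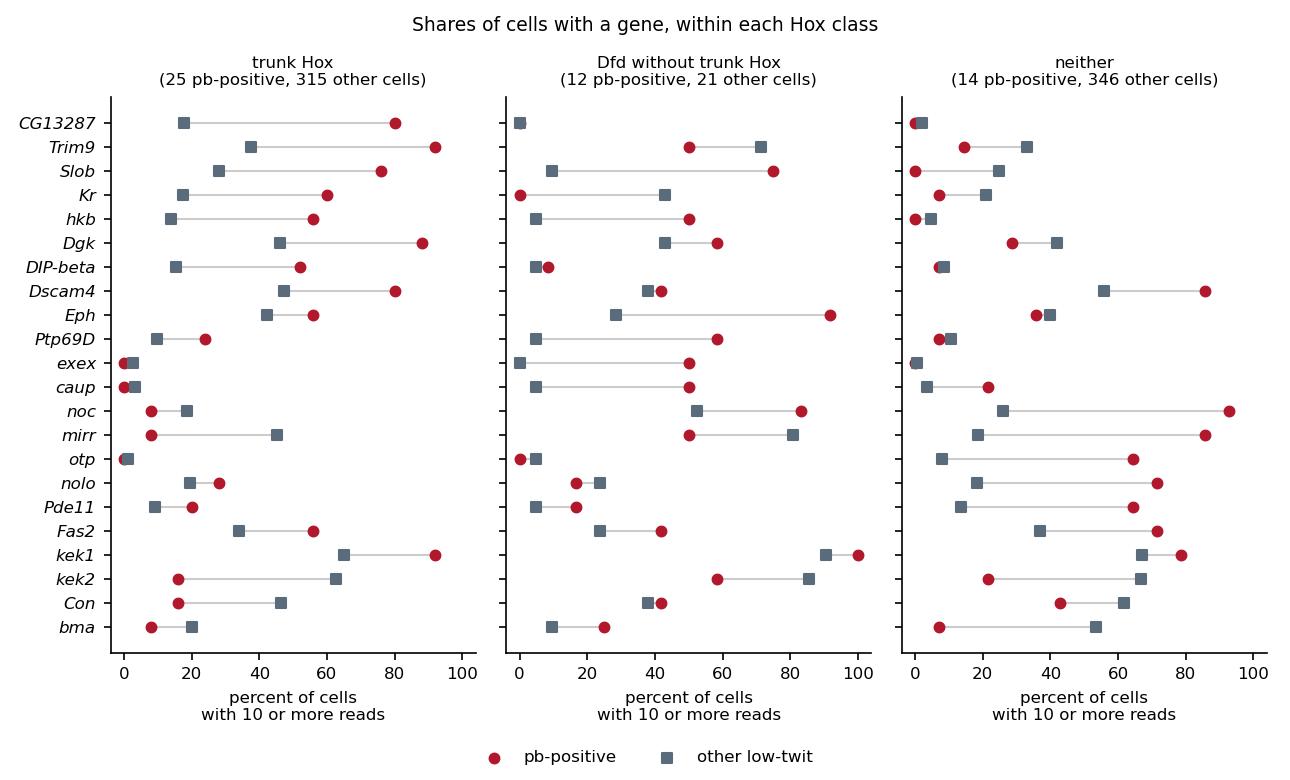
Share of cells with at least 10 reads of each gene (horizontal axes, percent) within cells with a trunk Hox gene, with Dfd, or with neither, for pb-positive cells (circles) and other low-twit cells (squares), where overlapping symbols mark equal or nearly equal shares. kek2 lies lower in pb-positive cells in all 3 panels (16, 58.3 and 21.4%), and CG13287, exex and otp each stand apart in 1 panel.

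Among all genes, SPR, the receptor of sex peptide and of myoinhibitory peptides, had the largest positive difference. It was in 33 of 51 pb-positive cells (64.7%, 50.1 to 77.6%) and 225 of 682 others (33.0%, 29.5 to 36.7%), 31.7 points higher with an interval of 16.6 to 45.1. The exons of SPR overlap frma. In its detecting cells SPR had similar reads, with a median of 41 in pb-positive cells and 44 in others. Mip, which encodes the myoinhibitory peptides, was in 5 and 11 cells. SPR was also in 17 of 25 and 83 of 315 trunk Hox cells, 8 of 12 and 6 of 21 Dfd cells and 8 of 14 and 136 of 346 cells with neither.

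The next genes were CG44837 (30.4 points), hkb (30.3), CG13287 (30.0), Slob (29.1), oaf (27.1), the translocon gene Sec61beta (27.0), CG9034 (26.2), the helix-loop-helix gene emc (26.1) and noc (25.6). The noc difference was 14.2 points among cells with a primed Hox read, and noc was in 49.0% of pb-positive cells and 55.6% of the 45 Dfd or Scr cells without pb and trunk Hox. Of the 30 genes at least 20 points higher than in all other low-twit cells, 21 were also at least 20 points higher than in those 45 cells, and 2 were lower (Dfd, which defines part of that set, and noc). For hkb, 20 pb-positive cells and 61 others had 10 reads, with medians of 241.5 and 182 reads, and the mean normalized count was 6.50-fold higher. For Slob the cells numbered 28 and 176, with medians of 74 and 45 reads. Slob was in 19 of 25 and 88 of 315 trunk Hox cells, but in 0 of 14 and 86 of 346 cells with neither. Trim9, a ubiquitin ligase gene of the netrin pathway, was likewise in 23 of 25 and 118 of 315 trunk Hox cells and in a smaller share of pb-positive Dfd cells (6 of 12 and 15 of 21). The cyclic nucleotide phosphodiesterase gene Pde11 was in 9 of 14 and 47 of 346 cells with neither.

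After kek2, the largest negative differences were those of CG31760 (-25.3 points), bma (-24.9), the collagen gene Mp (-24.6) and Con. The RNA-binding gene bru1 was in 4 pb-positive cells and 216 others (-23.8 points), and app, a palmitoyltransferase gene, in 4 and 196 (-20.9 points). bma was in 1 of 14 and 185 of 346 cells with neither, and in 3 of 12 and 2 of 21 Dfd cells. Pde9 was in 15 and 349 cells and the memory gene rad in 21 and 420, with differences of -21.8 and -20.4 points. Several of these low shares were also found in the 45 Dfd or Scr cells without pb and trunk Hox. CG31760 was in 17.6% of pb-positive cells and 20% of those cells, bma in 11.8 and 13.3%, Mp in 33.3 and 35.6% and rad in 41.2 and 37.8%, whereas Con (29.4 and 46.7%), bru1 (7.84 and 24.4%) and Pde9 (29.4 and 55.6%) were lower in pb-positive cells. Of the 15 genes at least 20 points lower than in all other low-twit cells, 4 were also at least 20 points lower than in the Dfd or Scr cells, and 13 than in the 201 cells without pb and any primed Hox read.

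Mean normalized counts, compared for the 4563 genes seen in at least 5% of low-twit cells, were at least 2-fold higher in pb-positive cells for 305 (6.68%) and at least 2-fold lower for 524 (11.5%). Of the homeodomain genes, 27 were common enough for this comparison, with 6 higher and 8 lower. Of the 120 surface genes, 8 were higher and 14 lower. With 51 cells in 1 group these means rest on few cells, and no count of genes by this ratio was read further.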

How the data were processed

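Single motoneurons were sequenced by SMART-Seq2, 1 library per cell, without molecular identifiers. Per the labels, the authors assigned reads with kallisto 0.43.0 and R 3.5.1 to the BDGP6 cDNA. They deposited whole-number counts per gene for 7279 genes, not normalized. The stated filter kept cells with 10 reads in 500 genes and genes with 10 reads in 5 cells, but it does not describe the table exactly: 40 cells had fewer than 500 such genes (387 at the least), 4 genes reached 10 reads in fewer than 5 cells, and 742 genes outside the table reached 10 estimated reads in 5 or more cells. The cause was not tested. The authors also deposited estimated counts and TPM values per transcript (30651 transcripts per cell). Here the estimated counts were summed per gene as an alternative and gave the pb transcripts, and TPM was not used. The sum over pb transcripts equalled the pb count within 1 read in all 999 cells.

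A gene was called seen at 10 reads, and shares of cells were compared with a threshold of 20 percentage points. The genes pb, twit and Vmat, which chose the cells, were left out. Shares have exact Clopper-Pearson intervals at 95%, differences combine both limits, and a count of 0 allows a share of 3 cells. That limit for a count of 0 is lower than the exact one (9.68 against 11.2% for 0 of 31 cells). Reads after PCR are not independent molecules, so that intervals cover counting error only. Normalized counts were divided by total over median total. Depth per cell is given in the report. The members and gene lists were chosen with earlier results of these data known. Genes were named by rule: all Hox genes and cofactors, 5 anterior homeodomain genes, the 12 homeodomain and 12 surface genes with the largest positive and the 6 of each with the largest negative differences, the 10 and 5 such genes of all, and the list genes past 20 points with up to 3 more. Genes outside the rule (Kr, NK7.1, Hmx partners such as nub, unpg and Vsx1, and the genes named within Hox classes) were chosen after their values were seen. Gene positions are from Ensembl release 115 (BDGP6.54). Analyses used python 3.11.15, pandas 2.3.3 and scipy 1.17.1, and the comparison of shares was tested on simulated data.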

Additional observations from a re-analysis of the deposited data

Results flagged for a closer look

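Reads of pb also appeared in cells that the comparison left out for their twit or Vmat reads. Of 266 such cells, 5 had at least 10 pb reads (1.88%, 0.613 to 4.33%). These values are a description of cells that no comparison used, since pb reads also chose the members. Of these, 4 had twit reads and 1, on plate 9, had Vmat with 6057 reads. The pb reads were 136 in the Vmat cell, and 70, 15, 132 and 15 in the twit cells, which held 1021, 43, 64 and 380 reads of twit. The twit cell on plate 2 had Antp, Ubx, abd-A, Lim3, tup and mirr, the one on plate 13 had Lim3, tup and ct, and the one on plate 14 had Scr, unpg, toy and hkb.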

How the results depend on the processing

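All 45 genes past 20 points kept their sign under the 9 alternatives fixed for them and without each of the 16 plates. The 45 were chosen by this difference and the settings reuse most of the same cells, so kept signs are no separate support. The limit of 20 pb reads gave the same 51 cells, and plates 7 and 16 held 0 pb-positive cells. Of 2241 values of 83 named genes under all settings, 2235 stayed within the interval of the difference or within 1.5 times the ratio, 6 moved and 0 reversed. The number of genes past 20 points was 26 (0.357%) with a pb-positive cell set at 1 pb read, with 1 homeodomain and 2 surface genes. Among cells with a primed Hox read it was 83 (1.14%) with 9 surface genes, and 90.7% of pb-positive cells had a primed Hox gene at 10 reads. Without limits on twit and Vmat, 0 homeodomain genes passed 20 points, and 28 genes of all were higher and 9 lower. At 15 points 157 genes passed and at 25 points 15 did, both thresholds chosen after the data were seen. With 1 plate left out at a time, the number of genes past 20 points ranged from 35 to 76 (0.481 to 1.04%), homeodomain genes from 1 to 3, surface genes from 4 to 9, pb-positive cells from 44 to 51 and their share with a primed Hox gene from 73.3 to 82.2%. With detection at 1 read 44 genes were higher and 11 lower, and with every cell thinned to 50000 reads 50 and 12, against 30 and 15. Single cells could not be paired because they share no replicate numbers, but pb-positive and other cells lay together on 14 plates. With the other cells weighted by the plates of the pb-positive cells, 44 genes passed 20 points. The 51 cells limit the precision, and the intervals of most differences span 20 points or more.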
